A study of Mus musculus with 24 samples.

Results

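Il1r1, Il1rn, Il1rap, Myd88, Irak1, Tnfrsf1a, Tnfrsf1b, Cd40, Traf1 and Tnfaip2 are 10 genes of interleukin-1 (IL-1) and tumor necrosis factor (TNF) receptor signalling. They were picked by symbol, with earlier results of these data known. Each of the 10 was found among the 12091 genes of the deposited expression table. Their transcript levels are described in every sample, and the effect of inhibiting pleiotrophin (PTN), a secreted heparin-binding growth factor, is given within each of 4 experiments.

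RNA from 24 mouse breast cancer samples was sequenced in 4 experiments of 6, each with 3 controls and 3 samples in which PTN was inhibited, to ask which transcripts respond when PTN is blocked or depleted. In 2 experiments the samples were mammary tumors from mice given the anti-PTN antibody 3B10, at 15 mg/kg in repeated doses, or the control antibody C44. The other 2 used cultured breast cancer cells that carried an shRNA against Ptn (shPTN) or a control vector (shCtrl). Replicates are separate samples of a group.

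The 4T1 tumors grew from an implanted mammary carcinoma line in BALB/c mice, and the groups were 4T1 C44 and 4T1 3B10. The MMTV-PyMT tumors arose in FVB/N mice from a polyoma middle T transgene under a mammary tumor virus promoter, and the groups were MMTV-PyMT C44 and MMTV-PyMT 3B10. The mice of the study were female, and the labels give no ages. E0771 is a mammary adenocarcinoma line from C57BL/6 mice, and E0771-LG was derived from a lung metastasis of E0771. The groups were E0771shCtrl, E0771shPTN, E0771-LGshCtrl and E0771-LGshPTN, all grown in DMEM with serum. The control vector was pLKO.1 with an shRNA sequence against EGFP, and the knockdown used a single shRNA sequence. Cells of every such group were infected and selected with puromycin as separate populations, so an effect of the shRNA cannot be told apart from a difference between the selected populations. E0771-LG stands for a single lung-derived line.

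The values of MMTV-PyMT tumors and of the cells are log2 CPM, reads of a gene scaled to the size of the library, from which the reads of each gene could be recovered. The 18 libraries held 15.63 to 21.12 M reads, with a median of 18.24 M. Each MMTV-PyMT C44 library, at 18.76 to 19.25 M, was deeper than each MMTV-PyMT 3B10 library, at 16.26 to 18.44 M. E0771shCtrl libraries held 16.61 to 20.42 M, E0771shPTN 15.63 to 19.32 M, E0771-LGshCtrl 17.3 to 19.59 M and E0771-LGshPTN 17.43 to 21.12 M. The 4T1 values are log2 values that behave as if divided by gene length. Their exact unit is not stated and their depth is unknown, so levels of the 4T1 tumors are not set against those of the other samples.

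IL-1 binds the receptor IL1R1, which then takes up its partner IL1RAP, and the adaptor MYD88 brings IRAK kinases to the receptor. TNF binds TNFR1 and TNFR2, and CD40 is a related receptor, and these pass their signal on through TRAF adaptors. Both routes activate NF-κB and mitogen-activated protein kinases, and in mammary tumors they act in cancer cells and in stromal and immune cells.

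The labels were set beside cell type markers. Mammary epithelial markers were abundant in the tumors. The summed level of 7 such genes was 3217 to 5120 in 4T1 tumors on the per-length scale and 3719 to 5554 CPM in MMTV-PyMT tumors. In the cells it was only 98.9 to 565 CPM. Krt8 was the most abundant of these in each cell group, with group means of 95.2 to 473 CPM, while Krt19 and Krt5 were at 0 in E0771shCtrl, E0771shPTN and E0771-LGshCtrl. Cdh1, which encodes E-cadherin, had 0 to 7 reads in a cell library, and Epcam had 129 to 512. The cell samples carry the label of a breast cancer line, and of this list only Krt8 and Epcam were well above 0 in every cell library.

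Ptn itself came first, as the target of the shRNA. In E0771shCtrl its log2 CPM was 2.90, 2.18 and 2.28 in replicates 1, 2 and 3, and in E0771shPTN it was -0.63, 0.25 and 0.53. In E0771-LGshCtrl it was 3.65, 4.51 and 3.74, and in E0771-LGshPTN 1.42, 0.98 and 1.38. In both lines the knockdown groups lay below the controls with no overlap. Ptn fell by 2.40 on the log2 scale in E0771 (SE 0.37, adjusted p = 0.00159) and by 2.71 in E0771-LG (SE 0.28, adjusted p = 6.3e-05). The difference between those effects was -0.30 with an SE of 0.48 and an adjusted p of 0.651. In MMTV-PyMT tumors Ptn was at 2.80, 2.73 and 3.42 with C44 and at 3.28, 2.95 and 4.22 with 3B10, and these overlap. The 4T1 tumors gave per-length log2 values of -0.19, -0.65 and -0.12 with C44 and of -0.76, 0.86 and 0.37 with 3B10, too low to pass the filter on low values.

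An effect below is the mean of the PTN-inhibited samples minus the mean of the controls on the log2 scale, tested with limma over every gene of the experiment that passed the filter, and a gene counts as lower or higher at an adjusted p under 0.05. None of the 10 members passed in 4T1 tumors, where 0% of 11467 genes did. At an unadjusted p under 0.05 there was 1 member, Tnfrsf1b, beside 6.27% of all genes. The same was seen in MMTV-PyMT tumors, with 0 of 10 members at an adjusted p under 0.05 beside 0% of 11361 genes, and 1 member, again Tnfrsf1b, at an unadjusted p under 0.05 beside 2.7% of genes. With voom weights on the MMTV-PyMT reads the count was also 0. No voom count exists for 4T1, since its reads cannot be recovered, and fitting all 24 samples together gave 0 members in both tumor experiments. Of the members, 1 had 4T1 groups that did not overlap, where 11.3% of genes did so, and 0 had such MMTV-PyMT groups, where the share was 8.34%.

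In the cells 5 of 9 tested members changed in E0771, beside 20.6% of 10394 genes. Of these 3 were lower (Traf1, Tnfaip2 and Irak1), beside 11.7% of genes, and 2 were higher (Il1r1 and Tnfrsf1b), beside 8.89%. Il1rn did not pass the filter there. In E0771-LG 5 of 10 members changed, beside 46.4% of 10405 genes, a share near that background. There 4 were lower (Il1r1, Tnfrsf1b, Tnfaip2 and Il1rap), beside 22.1% of genes, and 1 was higher (Traf1), beside 24.3%. Groups did not overlap for 6 of 9 members in E0771, where this held for 39.4% of genes, and for 6 of 10 in E0771-LG, where it held for 57.1%. In each line these were Il1r1, Il1rap, Tnfrsf1b, Traf1, Irak1 and Tnfaip2. The members were chosen with earlier results of these data known, so these counts cannot test whether the family stands out. Leaving out E0771shCtrl replicate 2 brought the members called in E0771 to 3 and all genes called from 2140 to 1268, and without E0771shCtrl replicate 3 or E0771shPTN replicate 3 the genes called were 1164 and 1220. In E0771-LG, leaving out E0771-LGshPTN replicate 2 gave 3 members and 3206 genes in place of 4826. Fitting all 24 samples together called 1 member and 912 genes in E0771, and 2 members and 4122 genes in E0771-LG.

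The median effect over the members was -0.17 in 4T1 tumors (all genes tested 0.01) and -0.10 in those of MMTV-PyMT (0.05), and in the cells it was -0.23 for E0771 (-0.03) and 0.12 for E0771-LG (0.05). Estimates were negative for 9 of 10 members in 4T1 (all genes 5552 of 11467) and for 6 of 10 in MMTV-PyMT (4430 of 11361). In 4T1 they were also negative for each leukocyte, macrophage, neutrophil and T cell marker tested, and the part of these cells was not tested. In the cells 5 of 9 members were negative in E0771 (5671 of 10394) and 4 of 10 in E0771-LG (4810 of 10405). The effect in E0771-LG minus that in E0771 was tested as an interaction over 10600 genes. It passed for 4 of 10 members, beside 34% of genes, with 2 below 0 (Il1r1 and Tnfrsf1b, beside 15.7%) and 2 above (Traf1 and Irak1, beside 18.3%). The fits of both lines share their control samples with the comparison of E0771-LGshCtrl against E0771shCtrl, in which 8 of 10 members differed, beside 57.9% of genes. Of those, 6 were higher in E0771-LGshCtrl, beside 20.5%, and 2 were lower, beside 37.3%. The higher ones include Il1rn, which did not pass the filter in E0771 alone and was let in by its level in E0771-LG, so its place in that count follows from the filter.

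**Figure D1:**
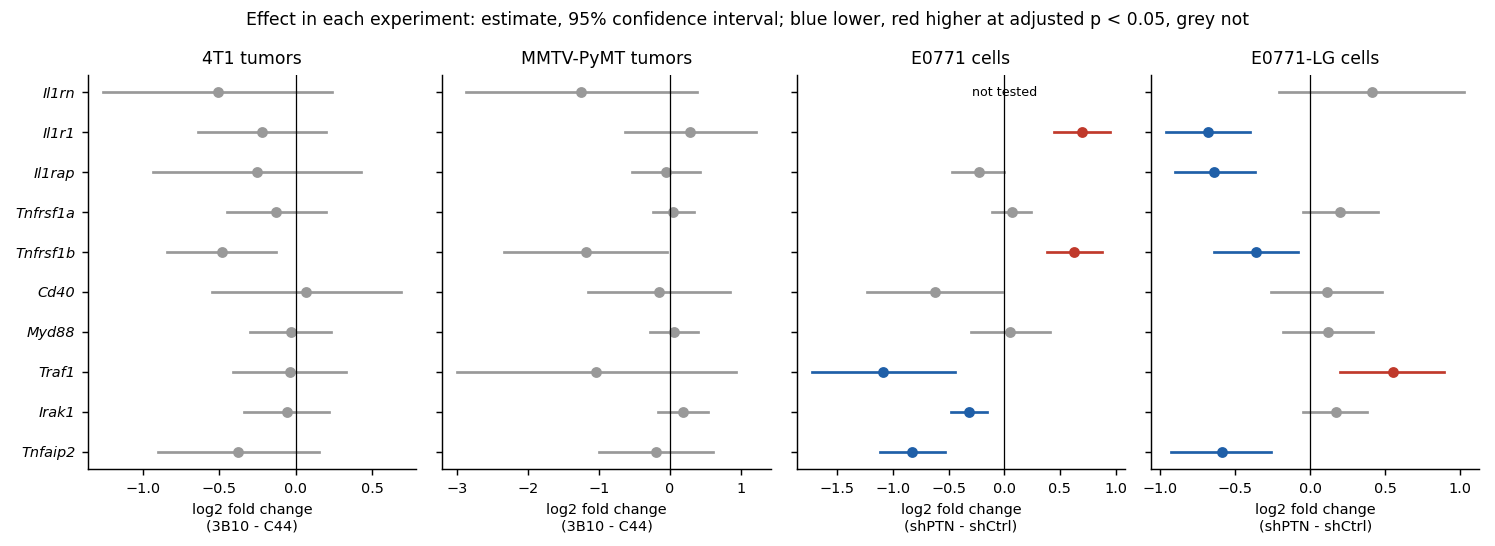
Log2 fold change of each member with PTN inhibition (x axis, points) and its 95% confidence interval (lines) in the 4 experiments, with genes in rows and a scale of its own for each panel. Blue marks lower and red higher at an adjusted p under 0.05, and grey neither. Every 4T1 and MMTV-PyMT estimate is grey, while Il1r1 is at 0.70 in E0771 and -0.68 in E0771-LG.

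Levels of different genes can be set side by side per length of exon. Outside 4T1 that length spans all annotated exons of a gene, not those of the transcript expressed, and the order can depend on it. By mean log2 CPM per kilobase, or by the deposited value in 4T1 if that is per length as it appears, Tnfrsf1a had the highest mean in each of the 8 groups, at 7.18 and 7.05 in 4T1 and, on the other scale, from 5.89 in MMTV-PyMT C44 to 6.19 in E0771shPTN. In E0771-LGshCtrl its values (5.82 to 6.09) overlapped those of Tnfaip2 (5.57 to 6.04). They overlapped in 4T1 C44 as well, with those of Tnfaip2 (7.10) also overlapping those of Tnfrsf1b (6.93). The last places were held by Il1rap (3.15) and Cd40 (3.29) in 4T1 C44, which overlap. In MMTV-PyMT C44 they were held by Il1rn (-0.28) and Cd40 (-1.50), which overlap too. Il1rn was last in every cell group, at -3.50 in E0771shCtrl, -3.83 in E0771shPTN, -0.86 in E0771-LGshCtrl and -0.44 in E0771-LGshPTN, with no overlap with the gene before it. In E0771shCtrl the order was Tnfrsf1a (6.12), Tnfaip2 (5.64), Irak1 (5.61), Tnfrsf1b (3.40), Il1rap (3.05), Myd88 (2.86), Il1r1 (2.25), Cd40 (1.09), Traf1 (-0.14) and Il1rn. Of these neighbours only Tnfaip2 and Irak1, and Il1rap and Myd88, overlapped.

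**Figure D2:**
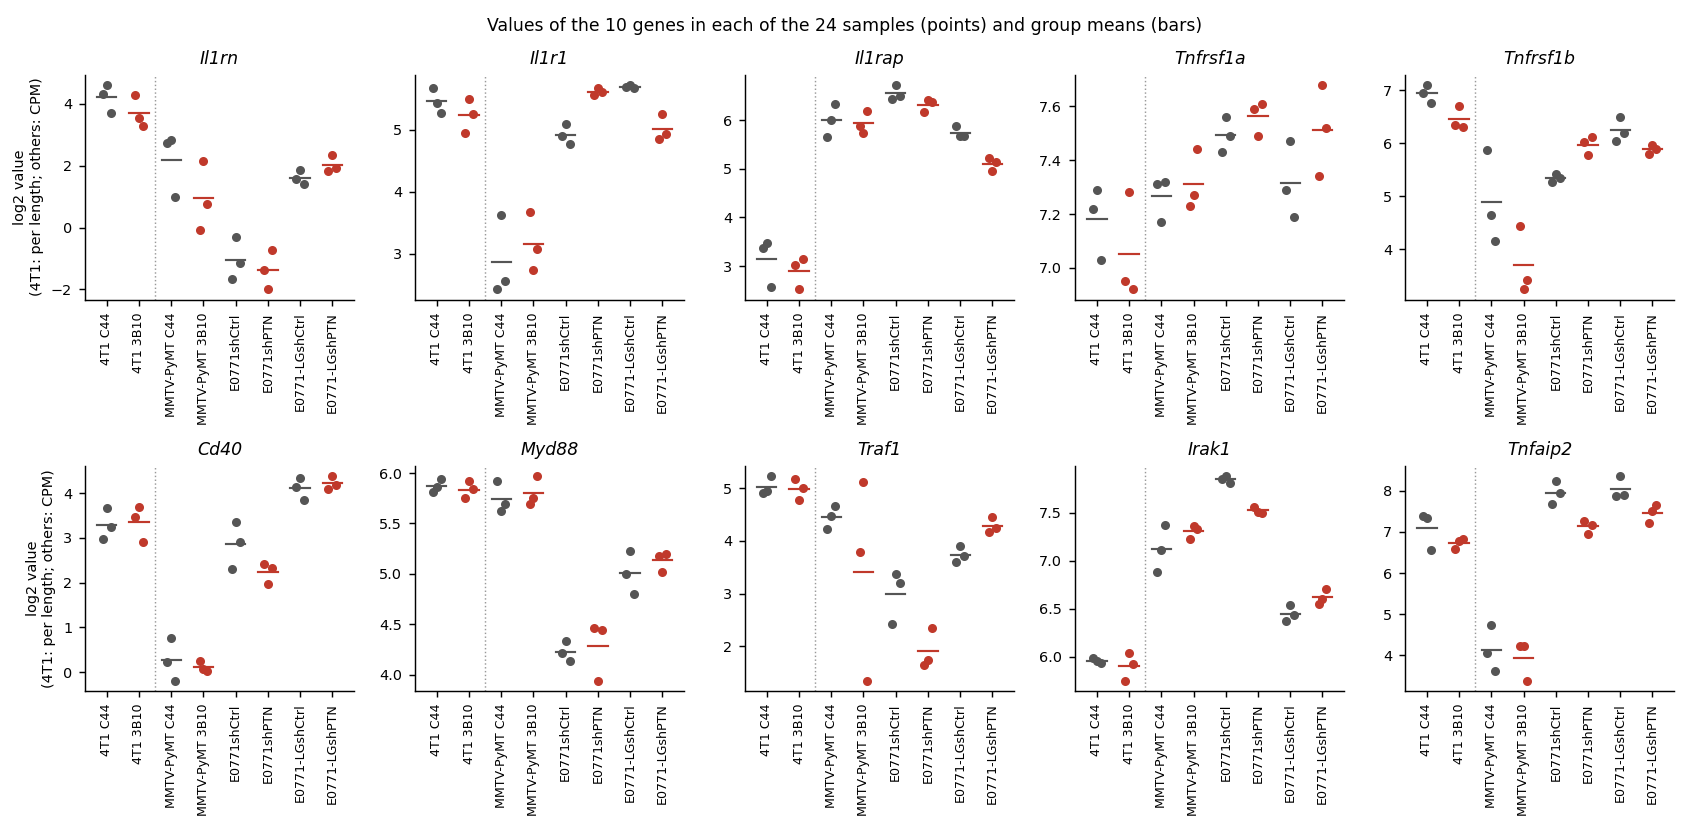
Value of each of the 10 members (y axis, log2) in each of the 24 samples (points) with group means (bars), controls grey and PTN-inhibited samples red. The dotted line sets off 4T1, whose values behave as per length, their unit not being stated, from the other groups, which are log2 CPM. Il1rn lies between -2.00 and -0.31 in the 6 E0771 samples and between 1.41 and 2.33 in the 6 of E0771-LG.

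Il1rn, at chr2:24336853-24351494 in GRCm38, encodes the IL-1 receptor antagonist, a ligand that binds IL1R1 without signalling. In 4T1 its per-length log2 values were 4.30, 4.61 and 3.71 with C44 and 4.29, 3.53 and 3.27 with 3B10. In MMTV-PyMT its log2 CPM was 2.74, 2.84 and 1.00 with C44 and -0.07, 2.14 and 0.76 with 3B10. The groups overlap in both models, with C44 replicate 3 the lowest control each time. The effects were -0.51 (95% confidence interval -1.26 to 0.24, adjusted p = 0.889) and -1.25 (-2.88 to 0.38, adjusted p = 1). Leaving out 1 sample, Il1rn ran from -0.80 (without 4T1 3B10 replicate 1) to -0.29 (without 4T1 3B10 replicate 3), and in MMTV-PyMT from -1.85 (without C44 replicate 3 or 3B10 replicate 2) to -0.74 (without 3B10 replicate 1). E0771 libraries held 4 to 16 reads of Il1rn, with log2 CPM of -1.65, -0.31 and -1.15 for shCtrl and -1.36, -2.00 and -0.72 for shPTN, and Il1rn was not tested there. In E0771-LG its log2 CPM was 1.57, 1.85 and 1.41 with shCtrl and 1.84, 2.33 and 1.91 with shPTN, and the lowest shPTN value lay just under the highest control. The effect there was 0.41 (-0.21 to 1.03, adjusted p = 0.249), and with quantile scaling it was 0.07 (0.85). Il1rn passed the filter of the joint fit of the cells only through E0771-LG, where it is higher, so its size and test between the control lines are not given. Each E0771-LGshCtrl sample, with 49 to 70 reads, was above each E0771shCtrl sample, with 5 to 16.

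Il1r1 encodes the signalling receptor for IL-1 and lies at chr1:40225080-40317257. Its values in log2 CPM were 4.90, 5.09 and 4.77 in E0771shCtrl and 5.56, 5.68 and 5.62 in E0771shPTN. In E0771-LGshCtrl it was 5.69, 5.73 and 5.68, and in E0771-LGshPTN 4.86, 5.26 and 4.94. The knockdown samples lay above the controls in E0771 and below them in E0771-LG, with no overlap in either line, and E0771shPTN came close to E0771-LGshCtrl. Il1r1 rose by 0.70 in E0771 (1.62-fold, SE 0.11, adjusted p = 0.00205). It fell by 0.68 in E0771-LG (0.624-fold, SE 0.13, adjusted p = 0.00163). The difference between these effects was -1.38 (SE 0.17, adjusted p = 6.24e-05). Between the controls Il1r1 was 0.78 higher in E0771-LGshCtrl (SE 0.12, adjusted p = 6.07e-05). Over 15 alternative settings the adjusted p in E0771 ran from 0.000629 to 0.0829, and it passed 0.05 in 14, the exception being the fit of all 24 samples. In the tumors the values overlapped. They were 5.67, 5.44 and 5.27 with C44 and 4.95, 5.50 and 5.26 with 3B10 in 4T1, and 2.42, 3.63 and 2.56 with C44 and 3.67, 2.73 and 3.07 with 3B10 in MMTV-PyMT. The estimates were -0.22 (adjusted p = 0.922) and 0.29 (adjusted p = 1). Leaving out 1 sample, Il1r1 ran from -0.35 (without 4T1 3B10 replicate 2) to -0.08 (without 4T1 3B10 replicate 1), and in MMTV-PyMT from 0.03 (without 3B10 replicate 1) to 0.67 (without C44 replicate 2).

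Promoter sequences from RefSeq (GRCm38.p6, 300 bases around a start) were found for 9 of the 10 members, in 13 entries. They were searched on both strands for the 10-letter NF-κB consensus, for the AP-1 letters TGANTCA and for the consensus of interferon regulatory factors. Among 32851 promoters of this length 8.46% held the first, 7.81% the second and 3.44% the third. Of the members, 3 had an NF-κB match (Il1r1, Irak1 and Tnfaip2), 1 an AP-1 match (Il1rn) and 3 a match to the third (Il1rap, Myd88 and Tnfrsf1b). Counted by promoter, as the shares are, these were 4, 1 and 3 of 13, and 2 of the 4 are overlapping entries of Irak1. The promoters of Il1r1, Irak1 and Tnfaip2 are printed because these are members with an NF-κB match whose transcripts changed in at least 1 line, and capitals mark that match. A match describes letters only. In Il1r1 it is in the second of 2 promoters, chr1:40266336-40266635 on the plus strand, and starts 232 bases before the start. In Irak1, one of a pair of promoters with the match, chrX:74023872-74024171 on the minus strand, it starts 18 bases before the start and reads as a match on both strands. In Tnfaip2, chr12:111442411-111442710 on the plus strand, it starts 24 bases before the start. The capitals printed for Il1r1 and Tnfaip2 match the consensus only when read on the opposite strand.
Il1r1: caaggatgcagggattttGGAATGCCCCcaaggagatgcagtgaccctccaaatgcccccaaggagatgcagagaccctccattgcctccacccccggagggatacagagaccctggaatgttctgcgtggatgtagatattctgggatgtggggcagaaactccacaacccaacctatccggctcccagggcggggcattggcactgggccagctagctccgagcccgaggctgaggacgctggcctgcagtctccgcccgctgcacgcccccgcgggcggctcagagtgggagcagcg
Irak1: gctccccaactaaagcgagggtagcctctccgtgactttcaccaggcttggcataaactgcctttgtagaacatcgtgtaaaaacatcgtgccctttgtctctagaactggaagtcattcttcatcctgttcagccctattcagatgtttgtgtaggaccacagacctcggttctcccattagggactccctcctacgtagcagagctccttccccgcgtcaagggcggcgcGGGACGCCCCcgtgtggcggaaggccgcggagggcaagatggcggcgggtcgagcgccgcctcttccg
Tnfaip2: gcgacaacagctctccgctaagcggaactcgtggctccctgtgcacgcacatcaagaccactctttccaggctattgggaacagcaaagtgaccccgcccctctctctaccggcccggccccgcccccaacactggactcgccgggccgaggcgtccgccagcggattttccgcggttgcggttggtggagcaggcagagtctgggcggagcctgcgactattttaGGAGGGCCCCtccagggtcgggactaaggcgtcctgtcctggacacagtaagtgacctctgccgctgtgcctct

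Il1rap, at chr16:26581704-26730117, encodes the co-receptor that IL1R1 needs to signal. Its log2 CPM was 5.88, 5.67 and 5.68 in E0771-LGshCtrl and 5.22, 4.95 and 5.15 in E0771-LGshPTN. In E0771shCtrl it was 6.44, 6.73 and 6.49, and in E0771shPTN 6.18, 6.42 and 6.37. All knockdown samples were below all controls in both lines, by a narrow gap in E0771. Il1rap fell by 0.64 in E0771-LG (0.643-fold, SE 0.12, adjusted p = 0.00175), while in E0771 the estimate was -0.23 (95% confidence interval -0.47 to 0.00, adjusted p = 0.151). The difference of the effects was -0.41 with an adjusted p of 0.0623. That adjusted p ran from 0.032 to 0.157 over 20 settings and passed 0.05 in 4 of them. These were median-of-ratios scaling (-0.46, 0.0415) and the fits without E0771shCtrl replicate 2 (-0.50, 0.032), E0771shPTN replicate 1 (-0.48, 0.0361) or E0771-LGshPTN replicate 1 (-0.46, 0.0484). Il1rap was lower in E0771-LGshCtrl than in E0771shCtrl, at -0.81 (SE 0.11, adjusted p = 2.53e-05). In the tumors its values were 3.37, 3.48 and 2.58 with C44 and 3.02, 2.52 and 3.15 with 3B10 in 4T1, and 5.65, 6.01 and 6.34 with C44 and 5.89, 5.73 and 6.19 with 3B10 in MMTV-PyMT. The groups overlapped, with estimates of -0.25 (adjusted p = 0.958) and -0.06 (adjusted p = 1). The 4T1 estimate of Il1rap ran from -0.53 (without C44 replicate 3) to -0.06 (without 3B10 replicate 2). Along 552 bases, 4.9% of its exons, Il1rap overlaps Gm20319 on the opposite strand, and whether reads were counted by strand is not stated.

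Tnfrsf1a, at chr6:125349362-125362484, encodes TNFR1, the receptor that can also start cell death. Its values were 7.22, 7.29 and 7.03 with C44 and 6.95, 7.28 and 6.92 with 3B10 in 4T1, and 7.31, 7.17 and 7.32 with C44 and 7.23, 7.27 and 7.44 with 3B10 in MMTV-PyMT. In E0771 they were 7.43, 7.56 and 7.49 with shCtrl and 7.59, 7.49 and 7.61 with shPTN, and in E0771-LG 7.29, 7.47 and 7.19 with shCtrl and 7.34, 7.68 and 7.52 with shPTN. Control and PTN-inhibited samples overlapped in all 4 experiments. The estimates were -0.13, 0.05, 0.07 and 0.20 in that order, and the smallest adjusted p was 0.176, in E0771-LG. Between the control lines the difference was -0.18 (SE 0.10, adjusted p = 0.134). It passed 0.05 in 1 of 20 settings, without E0771-LGshCtrl replicate 2 (-0.26, adjusted p = 0.0489), over a range of 0.0489 to 0.879. With median-of-ratios scaling the Tnfrsf1a difference was -0.02 (0.879).

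Tnfrsf1b encodes TNFR2, the TNF receptor without a death domain that is prominent on immune cells, and lies at chr4:145213463-145246870. In 4T1 its per-length log2 values were 6.95, 7.10 and 6.76 with C44 and 6.35, 6.70 and 6.31 with 3B10. In MMTV-PyMT its log2 CPM was 5.87, 4.64 and 4.16 with C44 and 4.44, 3.24 and 3.42 with 3B10. All 3B10 samples lay below all C44 samples in 4T1, whereas in MMTV-PyMT 3B10 replicate 1 lay above C44 replicate 3. The effects were -0.48 in 4T1 (95% confidence interval -0.84 to -0.13, unadjusted p from limma = 0.0145, adjusted p = 0.722) and -1.19 in MMTV-PyMT (-2.34 to -0.04, unadjusted p from limma = 0.044, adjusted p = 1). Neither passed after adjustment. Without MMTV-PyMT C44 replicate 1, the highest sample, the MMTV-PyMT effect of Tnfrsf1b was -0.70, and leaving out other single samples gave down to -1.56. In bulk tumors fewer cells of a type and less RNA per cell cannot be told apart. The summed level of 5 leukocyte markers was 950, 920 and 961 in 4T1 C44 and 758, 813 and 586 in 4T1 3B10, which separates the groups in the same direction as Tnfrsf1b. Its most abundant gene was Cd53 with C44 and Laptm5 with 3B10, and no marker was at 0. At an unadjusted p under 0.05 there were 2 of 5 markers lower and 0 higher, beside 6.27% of all genes either way. In MMTV-PyMT the sums were 123, 122 and 98.8 with C44 and 155, 102 and 95.7 with 3B10, which overlap. In 4T1 the summed T cell markers also separated, at 57.5, 78.8 and 85.2 with C44 and 38.6, 42.2 and 12.1 with 3B10, and the epithelial sum did so the other way, at 3217, 3489 and 3466 and at 4969, 4509 and 5120. The macrophage sum overlapped, at 4606, 4496 and 4996 with C44 and 3102, 4505 and 2865 with 3B10. So did the neutrophil sum, at 1116, 1046 and 1884 and at 1157, 734 and 579. The dendritic, endothelial and fibroblast sums overlapped too. The part of these cell types in the 4T1 values of Tnfrsf1b was not tested.

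In the cells Tnfrsf1b moved the way Il1r1 did. Its log2 CPM was 5.26, 5.41 and 5.34 in E0771shCtrl and 6.02, 5.77 and 6.12 in E0771shPTN. In E0771-LGshCtrl it was 6.04, 6.50 and 6.19, and in E0771-LGshPTN 5.79, 5.97 and 5.88. Knockdown samples were all above the controls in E0771 and all below them in E0771-LG, where the gap was small. Tnfrsf1b rose by 0.63 in E0771 (1.55-fold, SE 0.11, adjusted p = 0.0034), and over 15 settings the adjusted p ran from 0.00097 to 0.217, passing in 14 and missing in the fit of all 24 samples. Tnfrsf1b fell by 0.36 in E0771-LG (0.781-fold, SE 0.13, adjusted p = 0.0393). That call held in 7 of 15 settings, with adjusted p from 0.00681 to 0.357. It was lost without E0771-LGshCtrl replicate 2 (-0.23, 0.141) or replicate 3 (-0.38, 0.0722), and without E0771-LGshPTN replicate 1 (-0.31, 0.113), replicate 2 (-0.40, 0.0718) or replicate 3 (-0.36, 0.1). It was also lost with no filter (0.0661), with quantile scaling (0.0682) and in the fit of all 24 samples (0.357). The difference between the lines' effects was -0.99 (SE 0.17, adjusted p = 0.000889) and passed in 20 of 20 settings. Between the controls Tnfrsf1b was 0.91 higher in E0771-LGshCtrl (SE 0.12, adjusted p = 2.02e-05).

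In the cells some markers of other cell types went the way of Il1r1 and Tnfrsf1b and others did not. Beside the marker counts below, 11.7% of all genes were lower and 8.89% higher in E0771. In E0771-LG these shares were 22.1% and 24.3%. The leukocyte sum was 15.4, 21.4 and 19.6 CPM in E0771shCtrl and 47.6, 32.3 and 38.3 in E0771shPTN, and 2 of 2 tested markers, Laptm5 and Coro1a, rose. In E0771-LGshCtrl it was 91.6, 88.5 and 88.6 CPM, and in E0771-LGshPTN 47.4, 52.9 and 56, where Laptm5 fell (-0.94, adjusted p = 7.62e-05) while Coro1a had an estimate of 0.77 (adjusted p = 0.0836), so the lower sum rests on Laptm5. The most abundant gene was Coro1a in the E0771 groups and Laptm5 in the E0771-LG groups, and Cd52 was at 0 in E0771shCtrl. Ptprc, which encodes the pan-leukocyte antigen CD45, had 0 to 13 reads in any cell library. The fibroblast sum of 6 genes was 73.1, 100 and 86 CPM in E0771shCtrl and 328, 288 and 326 in E0771shPTN, where 4 of 4 tested markers rose. In E0771-LG it was 91.6, 144 and 106 CPM with shCtrl and 56, 63.7 and 72.5 with shPTN, where 2 of 5 tested markers fell and 1 rose. Its most abundant gene was Col3a1 in E0771shPTN and Pdgfra in the other cell groups, and Lum was at 0 in E0771shCtrl. Of the macrophage markers 0 of 2 tested passed in E0771 (Cd68 -0.92, adjusted p = 0.0695, and Cd14 -0.63, adjusted p = 0.1), and their sums overlapped. In E0771-LG 2 of 3 tested macrophage markers fell and 1, Cd68, rose (2.17, adjusted p = 0.00207). The macrophage sum there was 22.4, 24.1 and 22.5 CPM with shCtrl and 12.5, 15.5 and 17 with shPTN, which do not overlap.

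The epithelial markers did not follow Il1r1 and Tnfrsf1b either. In E0771-LG 3 of 3 tested rose, among them Krt8 (1.57, adjusted p = 3.88e-05), and their sum was 158, 204 and 164 CPM with shCtrl and 424, 565 and 516 with shPTN. In E0771 the sums were 99.3, 114 and 107 with shCtrl and 115, 98.9 and 108 with shPTN, which overlap. What part such markers' cells had in the results for Il1r1 and Tnfrsf1b was not tested.

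**Figure D3:**
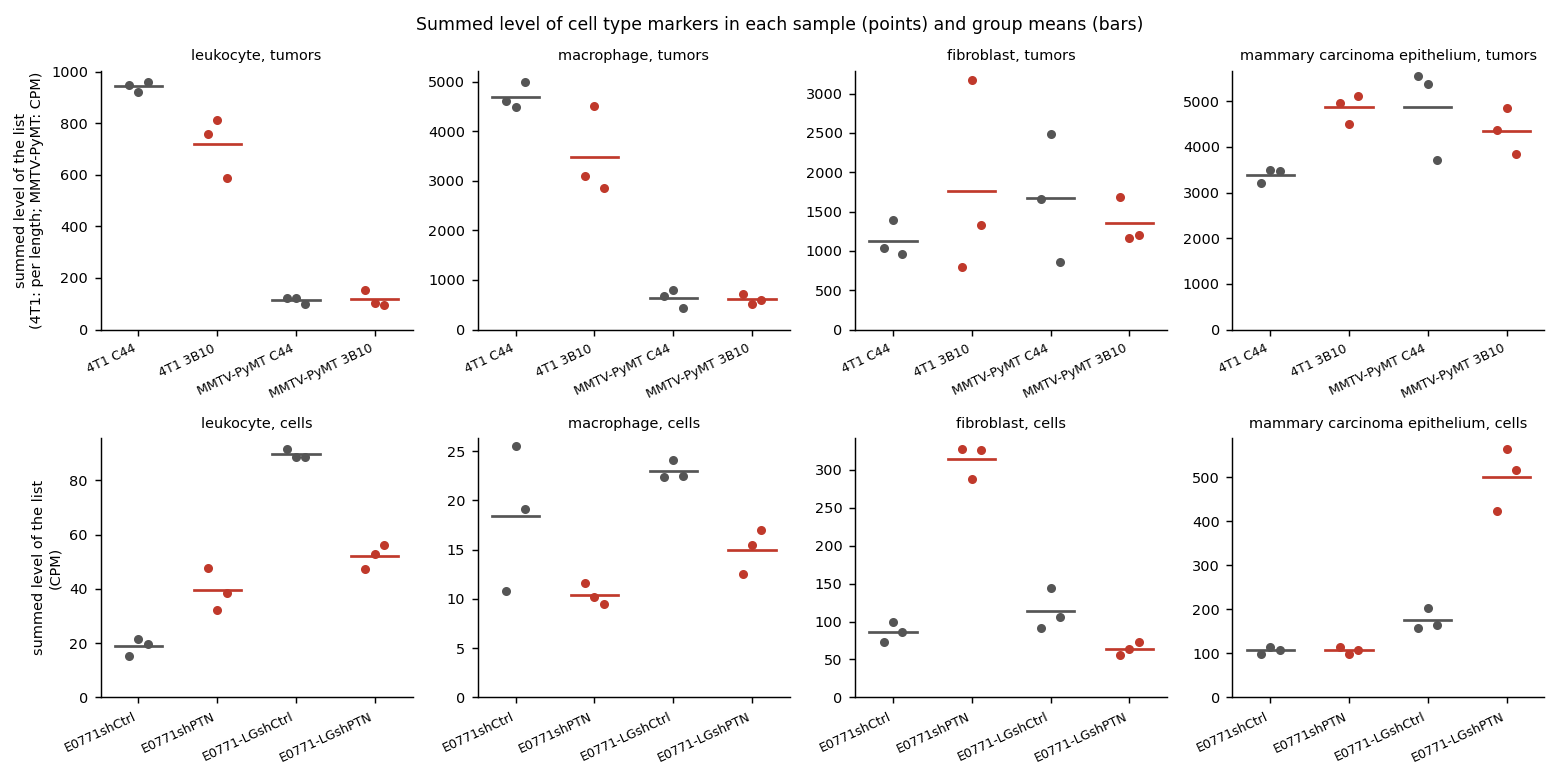
Summed level of the leukocyte, macrophage, fibroblast and mammary carcinoma epithelium marker lists (y axis, from 0, CPM or the per-length scale for 4T1) in each tumor sample (upper panels) and cell sample (lower panels), with points for samples and bars for group means. The leukocyte sum is 920 to 961 in 4T1 C44 and 586 to 813 in 4T1 3B10, and in the cells it is highest in E0771-LGshCtrl, at 88.5 to 91.6 CPM.

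Cd40, at chr2:165055627-165072948, encodes a TNF receptor family member best known on antigen-presenting cells. Its log2 CPM was 2.31, 3.35 and 2.91 in E0771shCtrl and 2.41, 1.97 and 2.33 in E0771shPTN. E0771shCtrl replicate 1 fell among the knockdown samples, and the other controls were above all of them. The effect was -0.62 (95% confidence interval -1.23 to -0.02, adjusted p = 0.137). Its adjusted p ran from 0.0356 to 0.423 over 15 settings and passed in 1, the fit without E0771shCtrl replicate 1 (-0.89). Without E0771shCtrl replicate 2 the Cd40 effect was -0.37 (0.423). In E0771-LG the values were 4.14, 4.34 and 3.84 with shCtrl and 4.09, 4.38 and 4.19 with shPTN, and these overlap (0.11, adjusted p = 0.606). The difference of the effects was 0.73 (SE 0.34, adjusted p = 0.102). It passed in 1 of 20 settings, without E0771shCtrl replicate 1 (1.01, adjusted p = 0.0202), and its adjusted p reached 0.248. Cd40 was 1.25 higher in E0771-LGshCtrl than in E0771shCtrl (2.38-fold, SE 0.24, adjusted p = 0.000377), with each sample of the one above each of the other. In 4T1 its values were 2.97, 3.66 and 3.24 with C44 and 3.47, 3.70 and 2.90 with 3B10, and in MMTV-PyMT 0.23, 0.76 and -0.19 with C44 and 0.26, 0.08 and 0.02 with 3B10, from 16 to 32 reads of Cd40. Both overlapped, with estimates of 0.07 (adjusted p = 0.989) and -0.15 (adjusted p = 1).

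Myd88, at chr9:119335934-119341411, encodes the adaptor that IL-1 receptors and most Toll-like receptors use. Control and inhibited samples overlapped in every experiment. In 4T1 the values were 5.81, 5.86 and 5.94 with C44 and 5.75, 5.92 and 5.84 with 3B10, and in MMTV-PyMT 5.92, 5.62 and 5.69 with C44 and 5.69, 5.75 and 5.97 with 3B10. In E0771 they were 4.22, 4.33 and 4.14 with shCtrl and 4.46, 3.94 and 4.44 with shPTN, and in E0771-LG 5.0, 5.23 and 4.80 with shCtrl and 5.18, 5.02 and 5.20 with shPTN. The estimates were -0.03, 0.06, 0.05 and 0.12, and the smallest adjusted p among them was 0.486. Between the control lines Myd88 was 0.78 higher in E0771-LGshCtrl (1.72-fold, SE 0.15, adjusted p = 0.000476), with no overlap between 4.14 to 4.33 in E0771shCtrl and 4.80 to 5.23 in E0771-LGshCtrl. Myd88 shares 290 bases, 11.3% of its exons, with Acaa1a on the opposite strand.

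Traf1, at chr2:34941750-34961772, encodes an adaptor of TNFR2 and CD40 that is itself induced by NF-κB. Its log2 CPM was 2.42, 3.37 and 3.20 in E0771shCtrl and 1.65, 1.74 and 2.35 in E0771shPTN. In E0771-LGshCtrl it was 3.60, 3.90 and 3.72, and in E0771-LGshPTN 4.17, 4.46 and 4.24. Knockdown samples lay below the controls in E0771 and above them in E0771-LG, with no overlap. Traf1 fell by 1.09 in E0771 (0.471-fold, SE 0.29, adjusted p = 0.0239). It rose by 0.55 in E0771-LG (1.46-fold, SE 0.16, adjusted p = 0.0149). The effects differed by 1.63 (SE 0.35, adjusted p = 0.00284), in 20 of 20 settings past 0.05. So Il1r1 and Tnfrsf1b went up in E0771 and down in E0771-LG, and Traf1 did the reverse. Of 16 cell type markers tested for a difference between the lines' effects, 4 passed above 0, as Traf1 did, and 5 below. Over all genes 18.3% passed above 0 and 15.7% below. Among the markers above 0 were Cd68 (3.09, adjusted p = 0.00103) and Krt8 (1.62, adjusted p = 2.6e-05). The part of such markers' cells in the values of Traf1 was not tested.

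The call of Traf1 in E0771 held in 10 of 15 settings, with adjusted p from 0.00801 to 0.224. It was lost without E0771shCtrl replicate 2 (-0.90, 0.109) or replicate 3 (-0.98, 0.098), without E0771shPTN replicate 1 (-0.95, 0.0509), with no filter (0.0541) and in the fit of all 24 samples (0.224). In E0771-LG it held in 13 of 15, with adjusted p from 0.00974 to 0.419, and was lost without E0771-LGshPTN replicate 2 (0.46, 0.0769) and in the fit of all 24 samples (0.419). Between the controls Traf1 was 0.74 higher in E0771-LGshCtrl (SE 0.25, adjusted p = 0.0174). That difference was 0.45 without E0771shCtrl replicate 1 (adjusted p = 0.103), 0.66 without E0771-LGshCtrl replicate 2 (0.0533) and 1.14 with quantile scaling, and over 20 settings the adjusted p ran from 0.000526 to 0.103. In MMTV-PyMT Traf1 was at 4.23, 4.47 and 4.66 with C44 and at 3.79, 5.12 and 1.35 with 3B10. 3B10 replicate 3, with 41 reads, lay far below the rest. The estimate was -1.04 (SE 0.84, adjusted p = 1), and it ran from -1.88 to 0.00 when single samples were left out. In 4T1 the groups overlapped, at 4.91, 4.94 and 5.23 with C44 and 5.17, 4.78 and 5.01 with 3B10 (-0.04, adjusted p = 0.989).

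Irak1, at chrX:74013914-74023918, encodes the kinase that MYD88 brings to the IL-1 receptor. In log2 CPM it was at 7.85, 7.88 and 7.81 in E0771shCtrl and 7.56, 7.51 and 7.50 in E0771shPTN. E0771-LGshCtrl had 6.37, 6.54 and 6.43, and E0771-LGshPTN 6.55, 6.60 and 6.70. The groups did not overlap in either line, with knockdown samples lower in E0771 and, by a narrow gap, higher in E0771-LG. Irak1 fell by 0.32 in E0771 (0.801-fold, SE 0.07, adjusted p = 0.012). The call held in 12 of 15 settings, with adjusted p from 0.0118 to 0.0686. It was lost without E0771shCtrl replicate 2 (-0.30, 0.0502), without E0771shPTN replicate 3 (-0.31, 0.0686) and in the fit of all 24 samples (0.0612). In E0771-LG the estimate was 0.17 (SE 0.10, adjusted p = 0.188). The effects differed by 0.49 (SE 0.11, adjusted p = 0.00497). Between the controls Irak1 was lower in E0771-LGshCtrl, at -1.40 (0.38-fold, SE 0.08, adjusted p = 4.89e-09), the smallest adjusted p of any member in that comparison. In the tumors Irak1 was at 5.99, 5.96 and 5.93 with C44 and 5.75, 6.04 and 5.92 with 3B10 in 4T1, and at 6.88, 7.11 and 7.37 with C44 and 7.23, 7.36 and 7.33 with 3B10 in MMTV-PyMT. These overlapped, with estimates of -0.06 (adjusted p = 0.976) and 0.18 (adjusted p = 1). Its printed promoter carries the NF-κB match closest to a start among the members.

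Tnfaip2, at chr12:111442469-111455018, was first found as a gene induced by TNF, and its product shapes membrane protrusions. Its log2 CPM was 7.69, 8.24 and 7.95 in E0771shCtrl and 7.26, 6.96 and 7.18 in E0771shPTN. E0771-LGshCtrl had 7.88, 8.36 and 7.90, and E0771-LGshPTN 7.22, 7.50 and 7.65. It is the only member that was lower with knockdown in both lines at an adjusted p under 0.05, and no knockdown sample reached a control. Tnfaip2 fell by 0.83 in E0771 (0.563-fold, SE 0.13, adjusted p = 0.00205) and by 0.59 in E0771-LG (0.663-fold, SE 0.15, adjusted p = 0.00943). The effects differed by 0.24 (95% confidence interval -0.25 to 0.72, adjusted p = 0.441). In E0771-LG the call was lost in the fit of all 24 samples, where the adjusted p was the highest of 0.00212 to 0.0729 over 15 settings. Between the control lines the difference was 0.09 (-0.26 to 0.43, adjusted p = 0.662). In 4T1 Tnfaip2 was at 7.39, 7.34 and 6.56 with C44 and at 6.58, 6.77 and 6.82 with 3B10. C44 replicate 3 was the lowest of the 6, and the groups overlap (-0.38, adjusted p = 0.883). Without it the estimate of Tnfaip2 was -0.65, and without C44 replicate 1 it was -0.23. In MMTV-PyMT it was at 4.05, 4.73 and 3.62 with C44 and 4.22, 4.22 and 3.38 with 3B10 (-0.19, adjusted p = 1). Gm40578 overlaps 314 bases of Tnfaip2, 6.3% of its exons, on the opposite strand.

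**Figure D4:**
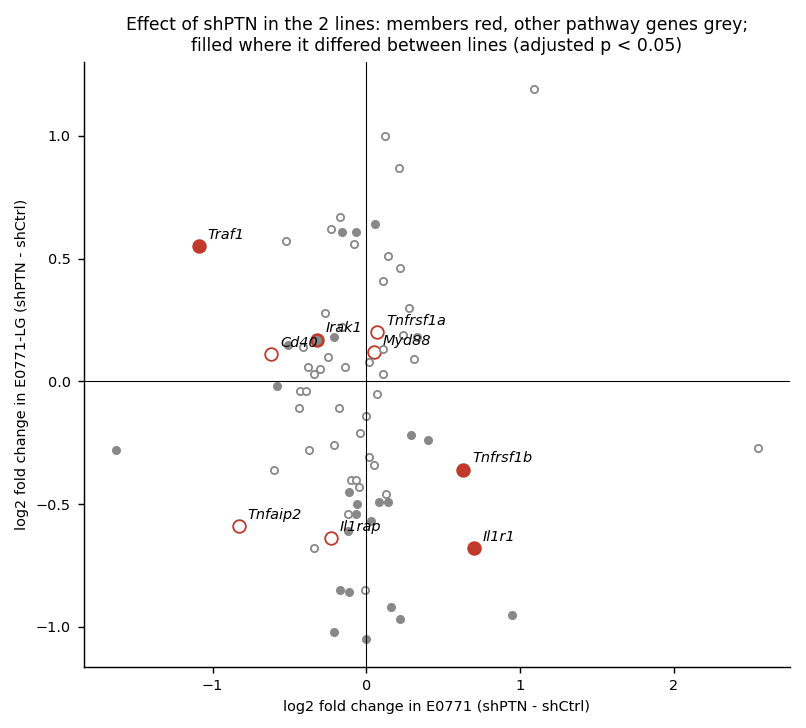
Log2 fold change with shPTN in E0771 (x axis) against that in E0771-LG (y axis) for the members (red, named) and the other pathway genes tested in both lines (grey), filled where the effect differed between the lines at an adjusted p under 0.05. Il1r1 and Tnfrsf1b lie at lower right, Traf1 at upper left and Tnfaip2, at -0.83 and -0.59, at lower left.

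Of the IL-1 ligands, Il1b had 0 to 2 reads in E0771 libraries and 0 to 9 in E0771-LG libraries. Il1a had 0 to 2 reads in E0771, and in E0771-LG 22, 35 and 22 with shCtrl and 8, 17 and 18 with shPTN. These do not overlap, which held for 57.1% of all genes in E0771-LG. Il1a did not pass with knockdown (-0.93, adjusted p = 0.17). In 4T1 Il1b was at 7.59, 7.46 and 7.23 with C44 and 7.15, 6.21 and 5.94 with 3B10, while Il1a was at 4.64, 4.79 and 4.14 and at 4.10, 3.37 and 2.98. The 3B10 samples of both genes lay below the C44 samples with no overlap. In 4T1 groups did not overlap for 11.3% of all genes, and for 10 of 81 in the wider list described below. Neither Il1a nor Il1b passed after adjustment, at 0.501-fold for Il1b and 0.487-fold for Il1a (adjusted p = 0.722 for each). Estimates of the myeloid markers in 4T1 were negative as well, for 9 of 9 macrophage markers and 4 of 4 neutrophil markers. Before adjustment 3 of the 9 and 3 of the 4 were below 0.05, beside 6.27% of all genes either way. The summed macrophage and neutrophil markers overlapped between C44 and 3B10. None of these markers passed after adjustment, and the part of these cells in the values of Il1a and Il1b was not tested. In MMTV-PyMT Il1b was at 2.54, 2.41 and 0.92 with C44 and 1.35, 1.06 and 1.75 with 3B10, and Il1a had 7 to 20 reads. Il18 and Il33 overlapped between groups in both tumor models. Il33, an IL-1 family alarmin, had estimates of 1.09 in E0771 (adjusted p = 0.127) and 1.19 in E0771-LG (adjusted p = 0.0715), and neither passed. Tnf is not in the table.

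A wider list of 92 other genes of IL-1 and TNF signalling, of which 81 are in the table, was counted in the same way. In 4T1 0 of 81 passed at an adjusted p under 0.05. There 62 estimates were negative and 19 positive, with a median of -0.11 (all genes 0.01). Over all genes 5552 of 11467 were negative. At an unadjusted p under 0.05 there were 4 lower and 1 higher, beside 6.27% of all genes. Each leukocyte, macrophage, neutrophil and T cell marker tested in 4T1 was negative as well, and the part of these cells was not tested. In MMTV-PyMT 0 of 77 passed with limma and 0 with voom weights. There 35 estimates were negative and 42 positive, beside 4430 of 11361 negative over all genes, and the median was 0.03 (all genes 0.05). At an unadjusted p under 0.05 there was 1 gene lower, beside 2.7% of all genes either way. In E0771 7 of 70 were lower, beside 11.7% of all genes, and 2 higher, beside 8.89%, with a median of -0.07 (all genes -0.03). Leaving out E0771shCtrl replicate 2 gave 3 in place of 9, E0771shCtrl replicate 3 gave 4 and E0771shPTN replicate 3 gave 5. In E0771-LG 19 of 71 were lower, beside 22.1% of all genes, and 9 higher, beside 24.3%. The median was -0.05 (all genes 0.05), and without E0771-LGshPTN replicate 2 there were 17 genes called in place of 28. Either way, 20.6% of all genes were called in E0771 and 46.4% in E0771-LG, and the difference in share was not tested. The effect differed between the lines for 24 of 74 pathway genes, beside 34% of all genes. Of the 24, 16 were below 0, beside 15.7% of all genes, and 8 above, beside 18.3%.

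**Figure D5:**
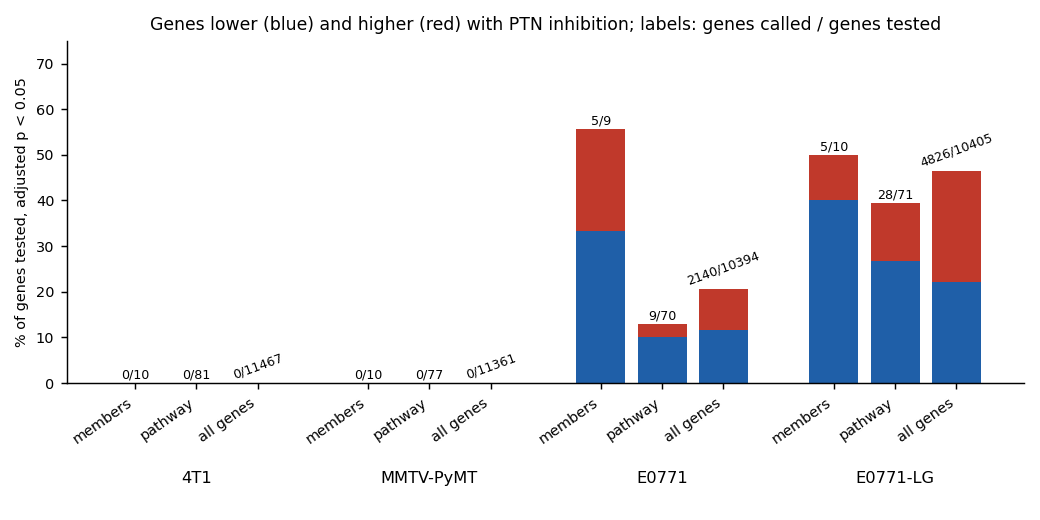
Percent of genes tested that were lower (blue) or higher (red) with PTN inhibition at an adjusted p under 0.05 (y axis, stacked bars) for members, pathway genes and all genes in the 4 experiments, with the number called of the number tested above each bar. Bars are at 0 in 4T1 and MMTV-PyMT, and members reach 5 of 9 in E0771 and 5 of 10 in E0771-LG, beside 20.6% and 46.4% of all genes.

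Named here are, in each line, the pathway genes with the largest effects each way among those at an adjusted p under 0.05, up to 4. Some genes that did not pass had larger estimates, such as Il33 in both lines. In E0771 the death receptor Fas fell by 1.63 (adjusted p = 0.00859), the kinase Mapk9 by 0.58 (0.00544), the linear ubiquitin ligase Rnf31 by 0.51 (0.0123) and the TAK1 partner Tab3 by 0.44 (0.04). The kinase Mapk14 rose by 0.40 (0.00515) and the protease Furin by 0.33 (0.0247). The calls of Tab3 and Furin were the weakest of these. Tab3 passed in 6 of 15 settings (adjusted p 0.0126 to 0.153), missing with no filter (0.0778), either other scaling (0.05 and 0.0514) and all 24 samples (0.0891), and of the fits without 1 sample only that without E0771shPTN replicate 2 kept it (0.0403). Furin passed in 9 of 15 (0.00708 to 0.216), missing in the fit of all 24 samples (0.216), and of the fits without 1 sample was kept only without E0771shPTN replicate 1. Rnf31 was lost without E0771shCtrl replicate 2 (-0.46, 0.0534) or replicate 3 (-0.49, 0.0592), within a range of 0.00791 to 0.0592.

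In E0771-LG the kinase Map3k3 fell by 1.05 (adjusted p = 6.52e-05) and Traf6, the adaptor that links IRAK1 to NF-κB, by 1.02 (0.000164). The kinase Ikbke fell by 0.97 (0.0266) and the B cell factor Tnfsf13b by 0.92 (0.0148). Tnfrsf21, a death receptor, rose by 0.91 (0.0245), Tnfsf12, the ligand TWEAK, by 0.87 (0.0167), Tnfrsf9, a costimulatory receptor, by 0.67 (0.017) and Sharpin, a partner of Rnf31, by 0.64 (0.00267). Map3k3, Traf6 and Sharpin passed in 15 of 15 settings. The others were lost under some settings: Ikbke without E0771-LGshCtrl replicate 2 (0.0787) or E0771-LGshPTN replicate 1 (0.0926) or 2 (0.0674) and with no filter (0.06), within 0.00391 to 0.0926, and Tnfsf13b without E0771-LGshPTN replicate 3 (0.0597), within 0.00559 to 0.0597. Tnfrsf21 was lost without E0771-LGshCtrl replicate 3 (0.1) or E0771-LGshPTN replicate 2 (0.0684) or 3 (0.11), with quantile scaling (0.0696) and in the fit of all 24 samples (0.19), within 0.0119 to 0.19. Tnfsf12 was lost without E0771-LGshCtrl replicate 3 (0.0595) or E0771-LGshPTN replicate 2 (0.0887) and in the fit of all 24 samples (0.0642), within 0.00316 to 0.0887, and Tnfrsf9 without the same samples (0.0602 and 0.0912) and in that fit (0.504), within 0.00472 to 0.504.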

How the data were processed

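RNA sequencing of 24 mouse samples in 8 groups of 3 was read from the deposited table of log2 values, made by the authors with HISAT2, featureCounts, edgeR and limma, versions not stated. For 18 samples the deposited log2 values are CPM with an offset of 0.5 reads, and whole reads were recovered. The deposited 4T1 log2 values behave as per gene length, their unit not being stated. Depth was 15.63 to 21.12 M reads. Each experiment was fitted with limma 3.58.1 (R 4.3.3; trend and robust shrinkage) after a filter, a value, taken off the log scale and above the sample's lowest, of at least 1 in at least 3 samples, and called at an adjusted p under 0.05 (Benjamini-Hochberg). The cell samples were also fitted together, for the interaction and the difference between control lines. Python 3.11.15 made tables and figures. Alternatives were other filters, scalings, thresholds, a pseudocount, voom weights, a replicate block, all 24 samples and leaving out each sample. Named genes are the members, Ptn, 5 ligands, the 4 pathway genes called with the largest change each way, and markers at 0 or most abundant. The markers Ptprc, Cdh1 and Epcam are named besides. Members and lists were chosen with earlier results of these data known.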

Additional observations from a re-analysis of the deposited data

Results flagged for a closer look

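The effect of the shRNA differed between E0771-LG and E0771 at an adjusted p under 0.05 for 4 of 10 members, beside 34% of genes. The share of members is near that background. This difference between groups is what marked the 4: Il1r1 (-1.38, adjusted p = 6.24e-05), Tnfrsf1b (-0.99, 0.000889), Traf1 (1.63, 0.00284) and Irak1 (0.49, 0.00497). Each passed in 20 of 20 settings. It also differed for 24 of 74 other pathway genes, beside 34% of all genes, with 16 below 0 (all genes 15.7%) and 8 above (18.3%). Of the pathway genes named in the report, these were Fas (1.35, 0.0346), Ikbke (-1.19, 0.0321), Map3k3 (-1.05, 0.000182), Mapk14 (-0.64, 0.00234), Mapk9 (0.56, 0.0206), Rnf31 (0.66, 0.0319), Sharpin (0.58, 0.0246), Tnfsf13b (-1.07, 0.0457) and Traf6 (-0.81, 0.00325). Map3k3, Mapk14 and Traf6 passed in 20 of 20 settings. The others were less steady: Mapk9 passed in 16 (adjusted p 0.00947 to 0.0582), Sharpin in 14 (0.0155 to 0.069), Ikbke in 13 (0.00813 to 0.0752), Rnf31 in 12 (0.00619 to 0.0886), Fas in 11 (0.0113 to 0.0883) and Tnfsf13b in 7 (0.0224 to 0.117). Each line has 1 population per shRNA, so a difference between lines cannot be told apart from a difference between the selected populations.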

How the results depend on the processing

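In the tumors no member was called under any setting, and fitting all 24 samples together called 6 genes in 4T1. In E0771 that fit gave 1 member, 5 pathway genes and 912 genes, and an adjusted p under 0.01 gave 3, 3 and 971. In E0771-LG the fit of all samples gave 2 members, and the stricter threshold gave 3 members, 16 pathway genes and 3016 genes. Leaving out 1 sample at a time gave 3 to 6 members, 3 to 9 pathway genes and 1164 to 2139 genes in E0771, and 3 to 5, 17 to 33 and 3206 to 5113 in E0771-LG. The cause was not tested.

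Among the members, signs turned only for estimates that did not pass, the largest being -0.19 for Tnfaip2 and -0.15 for Cd40 in MMTV-PyMT. Quantile scaling gave -0.03 for Myd88 in the interaction. Leaving out 1 sample gave, in 4T1, Myd88 -0.07 to 0.01, Irak1 -0.13 to 0.02, Cd40 -0.10 to 0.30 and Traf1 -0.13 to 0.06. In MMTV-PyMT it gave Il1rap -0.24 to 0.11, Myd88 -0.02 to 0.15, Tnfrsf1a -0.01 to 0.09, Cd40 -0.37 to 0.10 and Tnfaip2 -0.45 to 0.11. In the cells it gave Myd88 -0.04 to 0.22 in E0771, Cd40 -0.02 to 0.23 in E0771-LG, Myd88 -0.10 to 0.18 in the interaction and Tnfaip2 -0.07 to 0.23 between control lines. The cause was not tested.

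Estimates that did not pass also moved by over 1.5 times with 1 sample left out for Tnfrsf1a (-0.24 to -0.06 in 4T1, 0.04 to 0.11 in E0771, 0.11 to 0.29 in E0771-LG, 0.05 to 0.22 in the interaction), Irak1 (0.07 to 0.31 in MMTV-PyMT), Ptn (0.13 to 0.77 in MMTV-PyMT, -0.64 to -0.03 in the interaction), Il1rap (-0.29 to -0.14 in E0771), Il1rn (0.26 to 0.53) and Myd88 (0.02 to 0.23) in E0771-LG and Tnfaip2 (0.10 to 0.39 in the interaction).

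Samples share a replicate number but no stated pair. Correlations of residuals within a number were -0.327, 0.436 and -0.253 in 4T1, -0.0357, 0.132 and 0.208 in MMTV-PyMT, -0.0274, 0.141 and -0.0366 in E0771 and 0.158, 0.237 and -0.117 in E0771-LG, and samples correlated best with their own number in 1, 2, 1 and 1 of 3. With a replicate block 5 members were called in each line, and 2450 genes in E0771 and 5012 in E0771-LG.

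With 3 samples per group, small effects could be missed. Voom weights were not run for 4T1, as reads cannot be recovered. Cell type, selected population and shRNA sequence were not varied separately, and bulk RNA does not show which cells hold a transcript. Levels of RNA say nothing of protein or of signalling.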
